A study of Mus musculus with 15 samples.

Results

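The FilGAP family is a group of 3 GTPase-activating proteins, Arhgap22, Arhgap24 and Arhgap25, which were taken here by gene symbol from a table of 55416 mouse genes. Their 21 annotated transcripts, 8 each for Arhgap22 and Arhgap24 and 5 for Arhgap25, were taken from a table of 140789 transcripts. Arhgap22 was chosen by the measured share of the gene's RNA assigned to ENSMUST00000131086, a transcript that was higher in stretched cells. The values of Arhgap22 and of its transcripts in the stretch comparisons are therefore given as a description, with no test. Arhgap24 and Arhgap25 were taken as its relatives, and the whole-table tests are given for them.

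A GTPase-activating protein (GAP) speeds the hydrolysis of GTP by a small GTPase and so switches it off. The members of this family act on Rac, the GTPase that drives actin polymerisation and the protrusion of the cell edge. Arhgap24, known as FilGAP, binds the actin crosslinker filamin A, which releases it when the actin network is strained, and it is phosphorylated by the kinase ROCK. In podocytes, the epithelial cells that wrap the capillaries of the kidney glomerulus with actin-rich foot processes, Arhgap24 is known as a brake on Rac1, and its human counterpart has been linked to familial focal segmental glomerulosclerosis. Arhgap22 is a Rac GAP known from endothelial and melanoma cells, and Arhgap25 is known mainly from blood cells.

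RNA was measured in SVI cells, a conditionally immortalised mouse podocyte line, so every library comes from 1 line. Differentiated cells had been seeded on flexible silicone membranes and were either left at rest or stretched by moving the membrane centre up and down. Experiment 1 held 3 unstretched samples and 6 low-stretch samples with a deflection of 5 to 6 mm, and experiment 2 held 3 unstretched samples and 3 high-stretch samples with a deflection of 7 to 8 mm. Amplitude and experiment are the same split of the stretched samples, so the effects of the 2 amplitudes cannot be told apart from those of the 2 experiments. No genetic change or drug is named for any group, and all cells share the conditional immortalisation. Low stretch was compared with no stretch within experiment 1, and high stretch within experiment 2.

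The libraries held between 172.2 M and 396.7 M gene counts (M, megacounts). Mitochondrial genes took 3.55% to 5.21% of the counts in experiment 1 and 1.14% to 2.60% in experiment 2. Of 13 podocyte markers, Tcf21 and Ptpro, which help to define the mature cell, were under 0.1 CPM (counts scaled to megacounts of the library) in every group, while Synpo, which encodes synaptopodin, stood at 316 to 660 CPM in the group means. The summed CPM of the 13 markers was 1516 to 1661 in the unstretched samples of experiment 1, 1652 to 1947 under low stretch, 2140 to 2883 in the unstretched samples of experiment 2 and 2676 to 3275 under high stretch. Actn4 and Synpo made up most of that sum, while Wt1 had lower group means with stretch, at 5.01 against 2.29 CPM and 2.81 against 0.548, as had Podxl, at 162 against 123 and 184 against 147. Markers of other kidney cells were summed in the same way. The summed CPM of 9 mesangial or fibroblast markers was 1248 to 1979 and 1505 to 3991 without and with low stretch, and 2607 to 7021 and 6674 to 10410 without and with high stretch, with overlap in both experiments and with Pdgfra, Itga8 and Lum under 0.1 CPM in every group. Acta2 made up most of it, and Pdgfrb had lower group means with stretch, at 86.4 against 59.7 CPM and 139 against 105. That of 8 tubular markers was 988 to 1360 and 494 to 806 in experiment 1, and 966 to 1237 and 320 to 491 in experiment 2, without overlap, while Umod, Slc34a1, Aqp2 and Slc12a3 were under 0.1 CPM in every group. Lrp2 and Aqp1 made up most of it, and Cubn and Slc12a1 had higher group means with stretch, for Cubn 4.96 against 6.10 CPM and 2.51 against 3.35. Of 8 endothelial markers, 6 were under 0.1 CPM in every group, Pecam1 and Cdh5 among them, and the list summed to 44.7 to 46.4 and 26.8 to 36.7 CPM in experiment 1 and to 69.0 to 80.4 and 43.8 to 56.0 CPM in experiment 2. Ehd3 made up nearly all of it, and Flt1 had higher group means with stretch, at 0.109 against 0.195 CPM and 0.0691 against 0.264. The 5 parietal markers summed to 373 to 446 and 343 to 601 CPM in experiment 1 and to 561 to 645 and 452 to 511 CPM in experiment 2. The part of these markers in the values below was not tested. Unstretched replicate 3 of experiment 2 stood apart from its group for Arhgap22. The log2 differences in the gene level of Arhgap22 that rest on it are given with and without it. Group means, their ratios and r values include it.

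Arhgap22 lies on the plus strand of chromosome 14 and its transcript models differ mainly in where they begin. In the GENCODE M21 annotation of GRCm38, ENSMUST00000111956 has 11 exons and 2106 coding bases and is called the full model here. ENSMUST00000131086 begins 36.364 kb downstream of the most 5′ annotated start, where the full model begins at 2.797 kb. Its own first exon of 348 bases is followed by exons identical to exons 3 and 4 of the full model, and it ends 75 bases into the 129 bases of exon 5. The annotation marks the end of this model as not found, so its 711 bases are a fragment of unknown full length. ENSMUST00000111955 begins at 105.677 kb with an own first exon of 230 bases, has 1611 coding bases and lacks exons 1 to 4 and 7 to 8 of the full model.

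**Figure D1:**
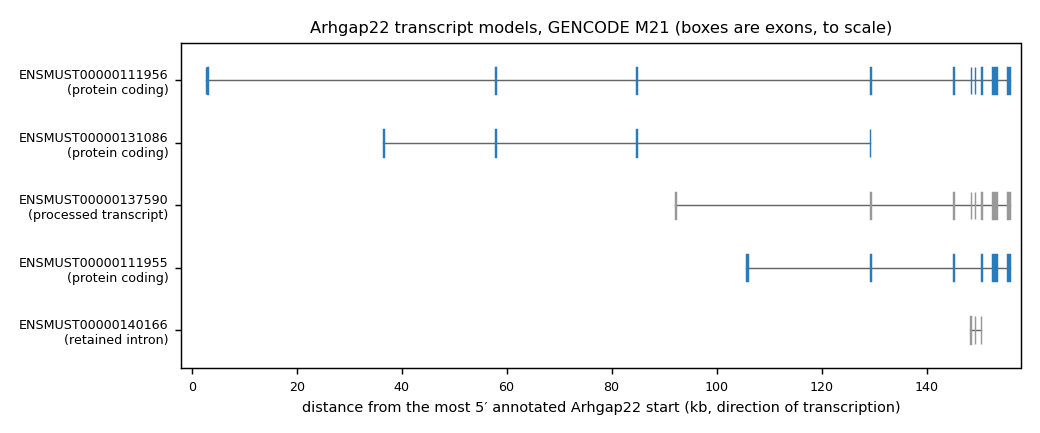
Exon models of the 5 Arhgap22 transcripts that took at least 5% of the gene in any group, drawn to scale against the distance in kb from the most 5′ annotated start. Blue boxes are exons of protein coding models and grey boxes are exons of non-coding models. ENSMUST00000131086 has an own first exon at 36.364 kb and shares its next exons with the full model ENSMUST00000111956, and ENSMUST00000111955 begins further downstream, at 105.677 kb.

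The coding starts show how these models differ in the protein they would encode. Each line gives the coding bases of the exon that holds the start codon in capitals and the next 24 coding bases, from the following exon, in lower case, 5′ to 3′, from the GENCODE M21 transcripts.
ENSMUST00000111956 (chr14:33217060-33217111, plus strand): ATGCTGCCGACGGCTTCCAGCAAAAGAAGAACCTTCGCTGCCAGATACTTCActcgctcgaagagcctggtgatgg
ENSMUST00000131086 (chr14:33250704-33250737, plus strand): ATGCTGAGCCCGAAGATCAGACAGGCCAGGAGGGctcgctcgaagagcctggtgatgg
ENSMUST00000111955 (chr14:33319881-33319932, plus strand): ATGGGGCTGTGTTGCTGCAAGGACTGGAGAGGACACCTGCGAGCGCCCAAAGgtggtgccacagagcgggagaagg
The first coding exons of ENSMUST00000111956 and ENSMUST00000131086, of 52 and 34 coding bases, join the same next exon, which begins at position 33271784. Both leave 1 base over after whole codons, so the 2 models enter that exon in the same reading frame and differ in the protein only at its amino end, as far as the shorter model is annotated. ENSMUST00000111955 joins a later exon, which begins at position 33343229.

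ENSMUST00000131086 took a small share of Arhgap22 in unstretched cells and a larger share in stretched cells. Shares are given as the percent of the summed TPM of all 8 Arhgap22 transcripts, where TPM, the unit of the transcript table, is a level per transcript length that adds up to the same total in every library. In experiment 1 its share was 2.96%, 4.62% and 2.08% in the unstretched samples and 9.70% to 15.07%, with a median of 13.3%, in the 6 low-stretch samples. Experiment 2 gave 3.50%, 3.31% and 2.41% in the unstretched samples and 26.95%, 18.78% and 21.05% in the high-stretch samples. Every stretched sample lay above every unstretched sample of both experiments, and the 3 high-stretch samples lay above the 6 low-stretch samples. The means were 3.22% ± 1.29 (SD, n = 3) without stretch and 13.18% ± 1.95 (SD, n = 6) under low stretch. Those of experiment 2 were 3.07% ± 0.582 (SD, n = 3) without stretch and 22.26% ± 4.22 (SD, n = 3) under high stretch. The stretched samples lay above all unstretched samples in share for 2.82% of the transcripts tested for usage under low stretch and for 7.74% under high stretch. Those percentages are background only, and nothing is read from them here, since the transcript was chosen for this pattern.

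**Figure D2:**
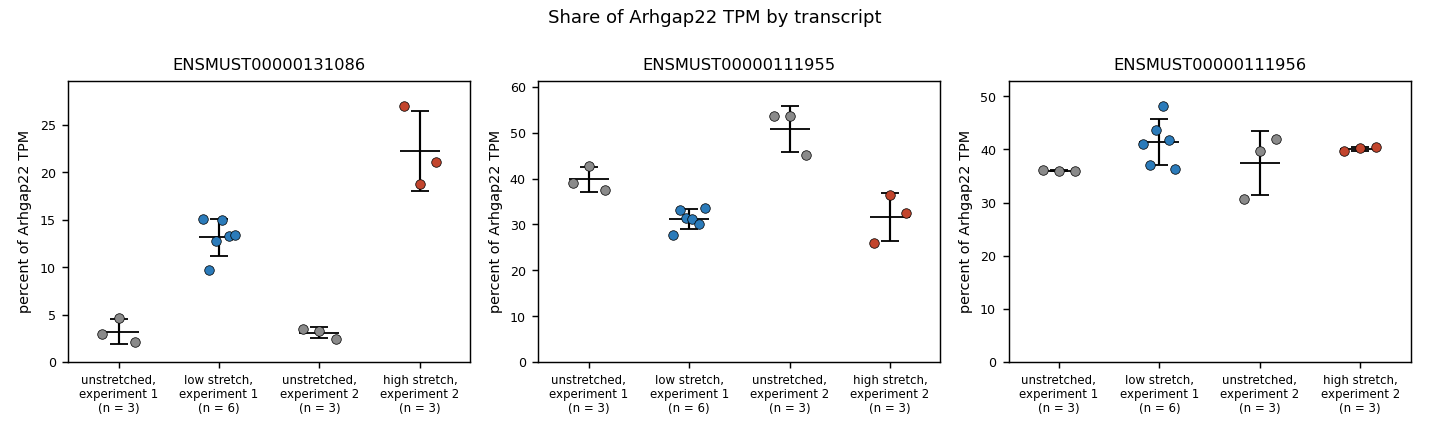
Share of Arhgap22 TPM in percent (y axes, from 0) for ENSMUST00000131086, ENSMUST00000111955 and ENSMUST00000111956 in the 4 groups (x axes), with 1 point per sample, horizontal bars for group means and error bars for the SD. ENSMUST00000131086 is higher in every stretched sample, ENSMUST00000111955 is lower in every stretched sample than in its own unstretched samples, and the full model lies near 36% to 41% in every group mean.

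The larger share came with a higher level of ENSMUST00000131086 itself and lower levels of the other main Arhgap22 transcripts. Its TPM was 0.353, 0.552 and 0.286 in the unstretched samples of experiment 1 and 0.780 to 0.992, with a median of 0.926, under low stretch. In experiment 2 its TPM was 0.703, 0.596 and 0.356 without stretch and 2.63, 1.92 and 2.12 under high stretch. The groups did not overlap in either experiment, and the ratio of the group means was 2.27 under low stretch and 4.03 under high stretch. For TPM levels and their ratios, here and below, lack of overlap was not counted over all features, so nothing is read from it.

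The full model ENSMUST00000111956 went the other way in level. Its TPM was 4.30, 4.30 and 4.94 without stretch and 2.64 to 3.09, with a median of 2.76, under low stretch. The values of experiment 2 were 6.13, 7.16 and 6.21 without stretch and 3.88, 4.12 and 4.07 under high stretch. The stretched samples lay below all unstretched samples of their experiment, at 0.627 and 0.619 times the unstretched mean. Its share was 35.97% ± 0.0798 (SD, n = 3) without stretch and 41.33% ± 4.34 (SD, n = 6) under low stretch, without overlap. In experiment 2 its share was 37.46% ± 6.06 (SD, n = 3) without stretch and 40.14% ± 0.359 (SD, n = 3) under high stretch, with overlap.

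ENSMUST00000111955, the model with the downstream start, had a smaller share in the stretched samples of both experiments. Its TPM was 4.67, 5.12 and 5.17 without stretch and 1.79 to 2.75, with a median of 2.01, under low stretch. Experiment 2 gave 10.75, 9.68 and 6.66 without stretch and 2.53, 3.73 and 3.26 under high stretch. Again no stretched sample reached an unstretched sample of its experiment, and the lowest unstretched value of experiment 2 was that of replicate 3. Shares of stretched samples lay below all unstretched samples for 2.61% of the transcripts tested under low stretch and for 6.84% under high stretch. Its share was 39.84% ± 2.68 (SD, n = 3) against 31.19% ± 2.11 (SD, n = 6) under low stretch. It was 50.79% ± 4.97 (SD, n = 3) against 31.61% ± 5.27 (SD, n = 3) under high stretch. The unstretched samples of both experiments thus had ENSMUST00000111955 as their most abundant Arhgap22 transcript by mean TPM, and both stretched groups had the full model in that place.

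The ratio of ENSMUST00000131086 to the full model compares 2 transcripts that share all but their first exons over the annotated part of the shorter model. It was 0.0895 ± 0.0358 (SD, n = 3) without stretch and 0.319 ± 0.042 (SD, n = 6) under low stretch. The ratio in experiment 2 was 0.0850 ± 0.0287 (SD, n = 3) without stretch and 0.555 ± 0.110 (SD, n = 3) under high stretch. The lowest ratios among the stretched samples, 0.262 under low and 0.467 under high stretch, lay above the highest unstretched ratios of 0.128 and 0.115.

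**Figure D3:**
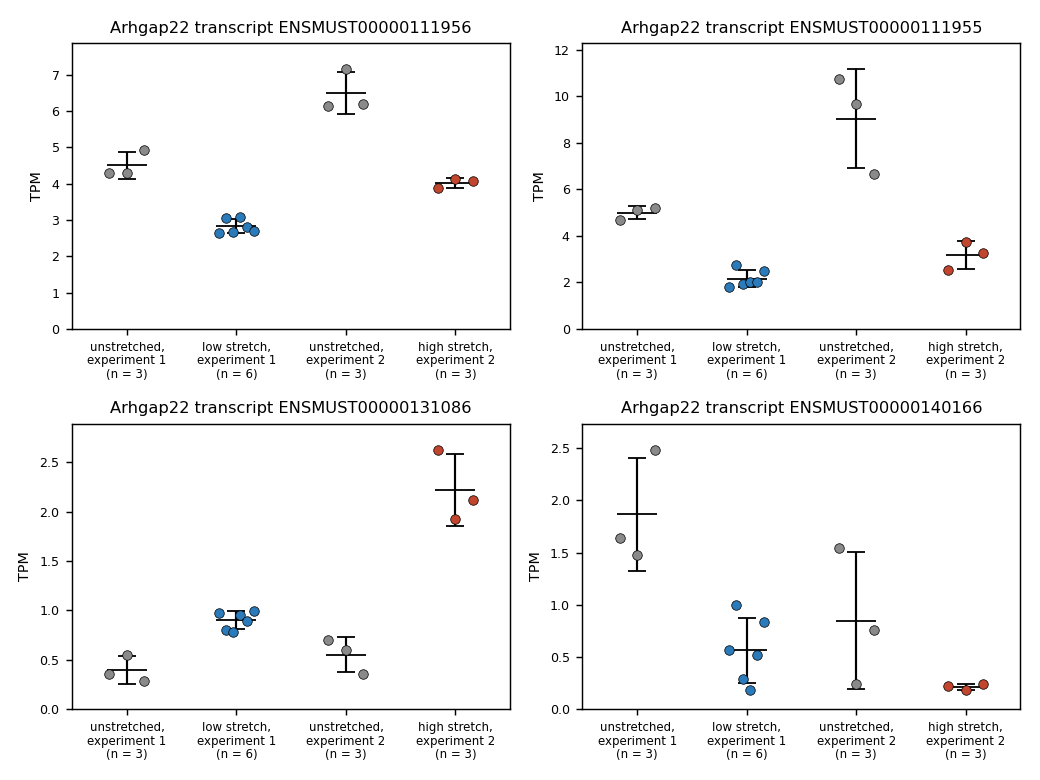
TPM (y axes, from 0) of 4 Arhgap22 transcripts in the 4 groups (x axes), with 1 point per sample, horizontal bars for group means and error bars for the SD. The full model ENSMUST00000111956 and ENSMUST00000111955 are lower in the stretched samples of each experiment, while ENSMUST00000131086 has group means of 0.397 without and 0.899 with low stretch, and of 0.552 without and 2.22 with high stretch.

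Among the other Arhgap22 transcripts, ENSMUST00000140166 is a retained-intron model of 437 bases. Its share was 14.7% ± 2.99 (SD, n = 3) against 7.88% ± 3.63 (SD, n = 6) under low stretch, with no overlap, and 4.73% ± 3.19 (SD, n = 3) against 2.14% ± 0.291 (SD, n = 3) under high stretch, with overlap. The processed transcript ENSMUST00000137590 had a share of 6.27% ± 1.91 (SD, n = 3) without and 5.65% ± 1.54 (SD, n = 6) with low stretch. Its share was 3.20% ± 1.27 (SD, n = 3) without and 3.36% ± 1.12 (SD, n = 3) with high stretch, and the groups overlapped in both experiments. The 3 remaining transcripts each had a mean share under 1% in every group.

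The larger share was also described within each plate run, a set of neighbouring positions that held both stretched and unstretched samples. As the groups did not overlap, its direction within a run was fixed beforehand, so the runs show only its size. The labels name no runs, and the borders between them were drawn here in an unbroken series of positions. In the 3 runs of experiment 1 the share of ENSMUST00000131086 was 9.42, 9.21 and 11.2 percentage points higher in the low-stretch samples than in the unstretched sample of the same run. In the 3 runs of experiment 2 the difference was 23.4, 15.5 and 18.6 percentage points. For ENSMUST00000111955, whose groups did not overlap in share either, the differences lay between -5.74 and -27.6 percentage points.

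The baseline of the experiments, which compares unstretched samples only, was tested except for ENSMUST00000131086. The unstretched samples also took part in the choice of Arhgap22, as the side that stretch was set against. For usage, limma was applied to the log2 of a transcript's TPM over that of the gene's remaining transcripts, where the transcript had a mean share of at least 5%. In unstretched cells ENSMUST00000131086 was below that minimum. Without the minimum, its usage in experiment 2 differed from experiment 1 by -0.09 on the log2 scale (SE 0.31). This is given with no test, since the transcript was chosen for a low share in these samples. ENSMUST00000111955 was used more in the unstretched cells of experiment 2, by 0.63 on the log2 scale (SE 0.18, limma adjusted p 0.0392), and ENSMUST00000140166 was used less, by -1.93 (SE 0.57, limma adjusted p 0.0455). In this comparison 32.1% of all transcripts tested passed. When each sample was left out in turn, ENSMUST00000111955 remained under 0.05 in 1 of 6 fits (adjusted p 0.00659 to 0.136) and ENSMUST00000140166 in 2 of 6 (adjusted p 0.0420 to 0.149).

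The stretch effects themselves are compared as a description, since they rest on the stretched samples that chose Arhgap22. The log2 difference in usage of ENSMUST00000131086 between stretched and unstretched cells was 0.93 larger under high than under low stretch, and that of ENSMUST00000111955 differed by -0.62.

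At the gene level Arhgap22 was lower in stretched cells. Its CPM, counts scaled to library size with edgeR's TMM factors, was 4.02, 3.95 and 4.60 without stretch and 2.40 to 3.04, with a median of 2.71, under low stretch. In experiment 2 it was 12.3, 12.1 and 6.57 without stretch and 5.03, 7.07 and 6.33 under high stretch. The low-stretch samples lay below all unstretched samples of experiment 1, as they did for 6.84% of all genes tested. In experiment 2, by contrast, unstretched replicate 3 lay below high-stretch replicate 2. The log2 fold change was -0.64 (SE 0.11) under low stretch and -0.75 (SE 0.29) under high stretch, or -0.98 (SE 0.22) without unstretched replicate 3. Within the plate runs the log2 ratio was -0.53, -0.55 and -0.79 in experiment 1 and -1.29, -0.77 and -0.05 in experiment 2, where the last run holds unstretched replicate 3.

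On the TPM scale, which is set per length, Arhgap22 was 12.6 ± 1.06 (SD, n = 3) without stretch and 6.90 ± 0.806 (SD, n = 6) under low stretch. Experiment 2 gave 17.6 ± 2.66 (SD, n = 3) without stretch and 10.02 ± 0.249 (SD, n = 3) under high stretch. On this scale the groups did not overlap in either experiment, and the share of all genes without overlap was not counted on it. The gene counts behind these values were 692 to 1949 per library, and in bulk RNA fewer cells that express a gene and less RNA per cell cannot be told apart.

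In unstretched cells Arhgap22 was higher in experiment 2 than in experiment 1, by 1.29 on the log2 scale (SE 0.28, edgeR adjusted p 0.00628), where 62.5% of all genes tested passed. Without unstretched replicate 3 of experiment 2 the difference was 1.50, the largest of the fits that left out 1 sample, and every one of those 6 fits passed. The ratio of the group means was 2.46 in CPM and 1.40 in TPM. The stretch effects on the gene level differed by -0.14 on the log2 scale, given with no test. The sign of that difference turned to 0.011 and 0.0038 when unstretched replicate 1 or 2 of experiment 2 was left out. Without unstretched replicate 3 of experiment 2 the difference was -0.33. In the order of CPM, low stretch stood lowest, then the unstretched cells of experiment 1, high stretch and the unstretched cells of experiment 2, and only the last 2 groups overlapped.

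**Figure D4:**
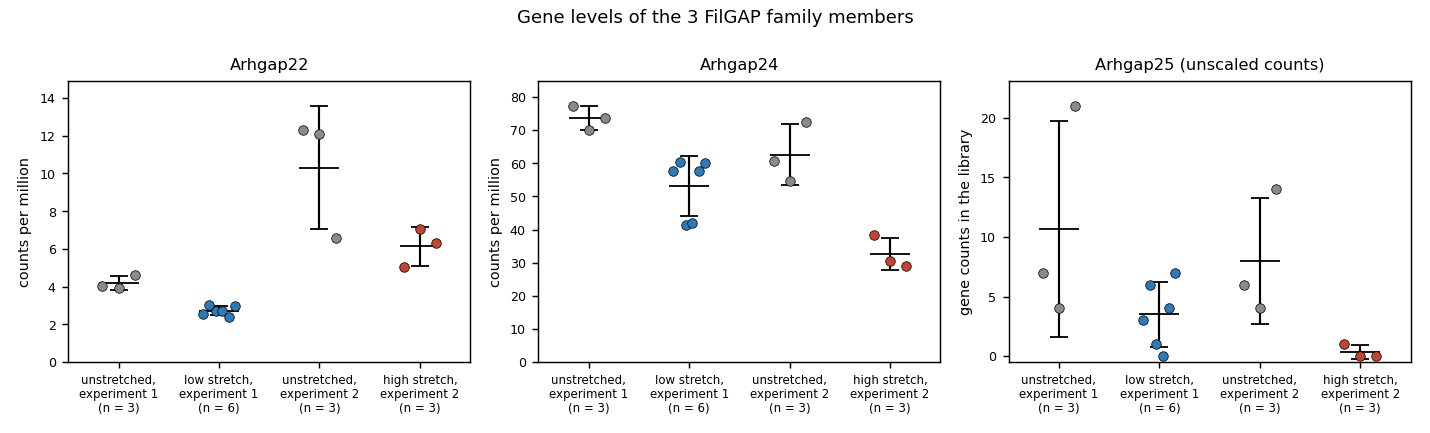
Gene levels of Arhgap22 and Arhgap24 in CPM (y axes, from 0) and of Arhgap25 in unscaled counts (y axis, from just below 0) in the 4 groups (x axes). There is 1 point per sample, with horizontal bars for group means and error bars for the SD. Arhgap24 is the most abundant of the 3 and is lower in stretched samples of both experiments, and Arhgap25 has at most 21 counts in a library.

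Arhgap24, FilGAP itself, was the most abundant member and was lower in stretched cells in both experiments, past the test under high stretch. Its CPM was 77.2, 70.1 and 73.7 in the unstretched samples of experiment 1 and 41.5 to 60.4, with a median of 57.7, under low stretch. In experiment 2 its CPM was 60.7, 54.6 and 72.5 without stretch and 38.2, 30.6 and 29.0 under high stretch. No stretched sample reached an unstretched sample of its own experiment. The groups did not overlap in that direction for 6.84% of all genes tested under low stretch and for 10.3% under high stretch.

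Under high stretch Arhgap24 fell by 0.94 on the log2 scale (SE 0.19, edgeR adjusted p 0.0424), in a comparison in which 3.47% of all genes tested passed (1.31% higher and 2.16% lower). With 1 sample left out it remained under 0.05 in 2 of 6 fits (adjusted p 0.0269 to 0.263), and it was lost without high-stretch replicate 1, 2 or 3 or unstretched replicate 1. The low-stretch log2 fold change was -0.49 (SE 0.13) and missed the threshold (edgeR adjusted p 0.0579), where 5.45% of all genes tested passed (1.85% higher and 3.6% lower). With the plate run as a block the low-stretch value was -0.52 (SE 0.078, adjusted p 0.000903), and with DESeq2 it was -0.49 (adjusted p 0.0180). In those fits 6106 of 21672 and 2837 of 21662 genes passed. Within the plate runs the lack of overlap fixed the direction of Arhgap24 beforehand. Its log2 ratios there were -0.39, -0.75 and -0.32 in experiment 1 and -0.67, -0.83 and -1.33 in experiment 2. The effects of the amplitudes differed by -0.47 (SE 0.23, edgeR adjusted p 0.9998, unadjusted p 0.0536).

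In unstretched cells Arhgap24 differed between the experiments by -0.25 on the log2 scale (SE 0.16, edgeR adjusted p 0.203). Without unstretched replicate 3 of experiment 2 this became -0.39 (adjusted p 0.0128). That sample had the highest Arhgap24 and the lowest Arhgap22 of its group. On the TPM scale the group means of Arhgap24 were 48.0 ± 2.51 (SD, n = 3) without stretch and 31.1 ± 6.56 (SD, n = 6) under low stretch. Those of experiment 2 were 28.5 ± 9.79 (SD, n = 3) without stretch and 13.1 ± 3.24 (SD, n = 3) under high stretch. Per length, Arhgap24 thus stood above Arhgap22 in every group mean. In the order of CPM, high stretch stood lowest, then low stretch, the unstretched cells of experiment 2 and those of experiment 1, and only high and low stretch did not overlap among neighbours.

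Nearly all Arhgap24 RNA was assigned to 2 transcripts, ENSMUST00000112852 and ENSMUST00000070000. Both begin far downstream of the most 5′ annotated start, at 287.380 and 363.616 kb. The longest coding model, ENSMUST00000094559, with 2241 coding bases, was listed at 0.0212 TPM at most. Arhgap24 lies on the plus strand of chromosome 5, and the 2 used models differ in the exon that holds the start codon, printed as above to show the amino ends they would encode.
ENSMUST00000112852 (chr5:102841307-102841412, plus strand): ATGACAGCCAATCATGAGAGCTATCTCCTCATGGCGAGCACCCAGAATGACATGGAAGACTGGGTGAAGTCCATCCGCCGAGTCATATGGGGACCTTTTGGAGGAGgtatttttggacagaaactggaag
ENSMUST00000070000 (chr5:102846055-102846169, plus strand): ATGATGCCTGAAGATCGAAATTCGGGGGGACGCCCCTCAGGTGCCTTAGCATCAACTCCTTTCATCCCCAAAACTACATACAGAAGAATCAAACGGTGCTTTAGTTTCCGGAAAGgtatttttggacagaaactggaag
Their start exons hold 106 and 115 coding bases and join the same next exon, which begins at position 102860330, with 1 base over after whole codons in both.

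The balance between these 2 Arhgap24 transcripts differed by a few percentage points between stretched and unstretched cells and did not pass the test. The share of ENSMUST00000070000 was 36.7%, 33.1% and 36.6% without stretch and 37.8% to 48.9%, with a median of 40.0%, under low stretch. In experiment 2 it was 32.4%, 27.3% and 31.4% without stretch and 39.1%, 32.4% and 38.8% under high stretch. In both experiments every stretched sample lay above every unstretched sample, though the closest pair in experiment 2, at 32.38% and 32.35%, nearly met. Usage of ENSMUST00000070000 differed by 0.33 on the log2 scale under low stretch (SE 0.14, limma adjusted p 0.484) and by 0.42 under high stretch (SE 0.17, limma adjusted p 0.610). Usage of ENSMUST00000112852, its mirror image, differed by -0.32 (SE 0.14, limma adjusted p 0.485) and -0.37 (SE 0.18, limma adjusted p 0.660).

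By limma, 0 of the 2 Arhgap24 transcripts passed over all transcripts in any of the 4 comparisons, where unadjusted p was under 0.05 for 2 under low stretch, for 1 under high stretch and for 0 in the other comparisons. In unstretched cells the usage of ENSMUST00000070000 differed between experiments by -0.33 (SE 0.14, limma adjusted p 0.113). Of all transcripts tested, 0.0145% passed under low stretch, where 2781 of 27672 had an unadjusted p under 0.05. Under high stretch 0 of 23374 passed, where 1906 had an unadjusted p under 0.05. For the difference between stretch effects 0.0339% passed. A p that misses the threshold does not show that the effects were alike. In level, ENSMUST00000112852 went from 30.5 ± 0.966 TPM (SD, n = 3) to 18.1 ± 4.01 (SD, n = 6) and from 19.5 ± 6.52 (SD, n = 3) to 8.18 ± 1.78 (SD, n = 3), without overlap in either experiment. ENSMUST00000070000 went from 17.1 ± 1.77 (SD, n = 3) to 12.7 ± 3.02 (SD, n = 6) and from 8.74 ± 3.40 (SD, n = 3) to 4.86 ± 1.53 (SD, n = 3), with overlap in both.

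Arhgap25 was barely detected. In experiment 1 its counts were 7, 4 and 21 without stretch and 3, 6, 1, 0, 4 and 7 under low stretch. In experiment 2 they were 6, 4 and 14 without stretch and 1, 0 and 0 under high stretch. Unstretched replicate 3 was the highest in both experiments, the low-stretch and unstretched samples overlapped, and the high-stretch samples lay below all others of their experiment. Lack of overlap was not counted over genes with such low counts, so no share stands beside it. Arhgap25 did not pass the filter on low counts in any comparison and so has no main test.

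Summed over libraries and scaled to their totals, Arhgap25 counts under low stretch were 0.317 times those without stretch (95% interval 0.174 to 0.567). Under high stretch the ratio was 0.0347 (95% interval 0.000843 to 0.213), from 1 count against 24. These intervals cover counting error only. Without the filter, edgeR gave an adjusted p of 0.251 under low stretch and 0.0418 under high stretch, 0.713 for the baseline and 0.9999 for the difference between effects. The transcripts ENSMUST00000101197, ENSMUST00000145128, ENSMUST00000113637, ENSMUST00000071024 and ENSMUST00000203559 each took at least 5% of Arhgap25 TPM in the mean of some group. With a gene total of at most 0.0515 TPM in any sample those shares rest on a few reads, and no comparison was made.

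Because Arhgap25 is a blood cell gene, leukocyte markers were set beside it. The summed CPM of 10 leukocyte markers was 24.5 to 27.0 without stretch and 7.44 to 14.3 under low stretch, and 25.3 to 26.8 without stretch and 6.99 to 10.7 under high stretch. Of these markers, Ptprc, Adgre1, Itgam and Tyrobp were under 0.1 CPM in every group. Csf1r, the receptor for macrophage colony-stimulating factor, made up most of the sum, at 23.4 ± 1.26 CPM (SD, n = 3) against 8.37 ± 2.85 (SD, n = 6) and 23.8 ± 0.916 (SD, n = 3) against 5.88 ± 1.58 (SD, n = 3). Cd68, a macrophage marker, went the other way under high stretch, at 1.03 ± 0.260 CPM (SD, n = 3) against 1.89 ± 0.252 (SD, n = 3) without overlap, and was 1.14 ± 0.0665 (SD, n = 3) against 1.07 ± 0.0849 (SD, n = 6) under low stretch. The part of these values in the Arhgap25 counts was not tested.

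The partners and targets of the family were followed in a list of 95 genes of the Rac pathway. Under low stretch 88 were tested with edgeR, 6 were higher and 5 lower, which is 12.5% of the list where 5.45% of all genes passed. The median log2 fold change of the list was 0.12, against 0.01 over all genes. Under high stretch 86 were tested, 2 were higher and 2 lower, which is 4.65% where 3.47% of all genes passed, and the median was 0.15 against -0.02. The list was put together for this family with earlier results of these samples known and is not independent evidence. The count under low stretch depends on the fit, as does that over all genes. The list count was 46 (35 higher) with the plate run as a block, where 6106 of 21672 genes passed. With DESeq2 the list count was 21, where 2837 of 21662 genes passed. It was 7, 6, 2, 7 and 1 without low-stretch replicate 2 or 4 or unstretched replicate 1, 2 or 3. Under high stretch the list count was 8 with DESeq2, where 1403 of 18519 genes passed. With the plate run as a block it was 11, where 1546 of 18524 genes passed. The list count was 0, 2 and 0 without high-stretch replicate 1, 2 or 3, and 1 and 12 without unstretched replicate 1 or 3.

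Rac1, the target of the family, had a log2 fold change of 0.28 (SE 0.11, edgeR adjusted p 0.153) under low and 0.52 (SE 0.16, edgeR adjusted p 0.161) under high stretch. Rac3, a close relative of Rac1, was lower under low stretch, at 2.27 CPM against 3.38 (log2 fold change -0.60, SE 0.11, edgeR adjusted p 0.0120). Of 9 other GTPases of the wider family, 1 was higher under low stretch, Rhoc, at 213 CPM against 131 (log2 fold change 0.67, SE 0.14, edgeR adjusted p 0.0227).

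The genes that act beside FilGAP on the Rac switch were the other Rac GAPs and the exchange factors, and how many passed depends on the fit. Under low stretch the exchange factor Farp1, which loads Rac with GTP, rose from 117 to 158 CPM (log2 fold change 0.40, SE 0.07, edgeR adjusted p 0.0117). Srgap3, another Rac GAP, fell from 18.1 to 10.6 CPM (log2 fold change -0.80, SE 0.15, edgeR adjusted p 0.0144). Under high stretch Arhgap31, a GAP for Rac and Cdc42, rose from 2.32 to 5.60 CPM (log2 fold change 1.26, SE 0.26, edgeR adjusted p 0.0421). Of 15 other Rac GAPs tested in each comparison, 1 passed in each (6.67%, where 5.45% and 3.47% of all genes passed). Of the exchange factors, 1 of 23 passed under low stretch (4.35%) and 0 of 22 with edgeR under high stretch. There the unadjusted p was under 0.05 for 5, as it was for 2705 of 18524 genes. DESeq2 called 1 of them there, where 1403 of 18519 genes passed. With the plate run as a block, 5 of 15 GAPs and 9 of 23 exchange factors passed under low stretch, where 6106 of 21672 genes passed. Under high stretch that fit called 3 of each, where 1546 of 18524 genes passed. DESeq2 called 2 exchange factors under low stretch, where 2837 of 21662 genes passed, and 2 GAPs under high stretch.

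Among the effectors downstream of Rac, Wasf3, a WAVE protein that turns on actin branching, was lower in both comparisons. It went from 9.56 ± 0.973 CPM (SD, n = 3) to 4.50 ± 0.564 (SD, n = 6) under low stretch (log2 fold change -1.11, SE 0.12, edgeR adjusted p 0.00195). Under high stretch it went from 7.57 ± 1.96 CPM (SD, n = 3) to 2.74 ± 0.0567 (SD, n = 3) (log2 fold change -1.47, SE 0.24, edgeR adjusted p 0.0210), a call lost without unstretched replicate 1 or any 1 of the high-stretch samples (edgeR adjusted p 0.0758 to 0.147). Abi1, another member of the WAVE complex, rose under low stretch from 62.1 to 82.8 CPM (log2 fold change 0.39, SE 0.09, edgeR adjusted p 0.0303). Cybb, a subunit of the Rac-dependent NADPH oxidase of phagocytes, was near the floor, at 0.0155 CPM under low stretch against 0.124 without. It passed the filter on low counts through its unstretched samples, so nothing is read from its call (edgeR adjusted p 0.0105). Iqgap2, a scaffold that binds active Rac, fell under high stretch from 5.04 to 0.695 CPM (log2 fold change -2.85, SE 0.36, edgeR adjusted p 0.00856). Of the 11 list genes called under low stretch, Cyfip1 and Wasf1 (higher) and Pak3 (lower) lie outside the rule for named genes and are given after their values were seen.

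Of the 13 FilGAP partners and kinases, 0 passed with edgeR in either stretch comparison, where 5.45% and 3.47% of all genes passed. Under low stretch their unadjusted p was under 0.05 for 2, as it was for 5104 of 21672 genes. Under high stretch it was so for 1, and for 2705 of 18524 genes. DESeq2 called 0 of the 13 under low and 1 under high stretch, where 2837 of 21662 and 1403 of 18519 genes passed. With the plate run as a block edgeR called 3 under low stretch, all higher, in a fit where 6106 of 21672 genes passed. Rock1 and Rock2, the kinases that phosphorylate FilGAP, had log2 fold changes of 0.12 and -0.09 under low stretch and -0.33 and -0.38 under high stretch. Both were lower in unstretched cells of experiment 2 than of experiment 1, by -2.23 (SE 0.47, edgeR adjusted p 0.00577) and -2.32 (SE 0.39, edgeR adjusted p 0.00533). Arf6, a GTPase that binds FilGAP, had log2 fold changes of 0.06 under low and 0.16 under high stretch. For the difference between the stretch effects, 0 of 22015 genes passed with edgeR and 0 with DESeq2, and the unadjusted p was under 0.05 for 547 and 665.

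**Figure D5:**
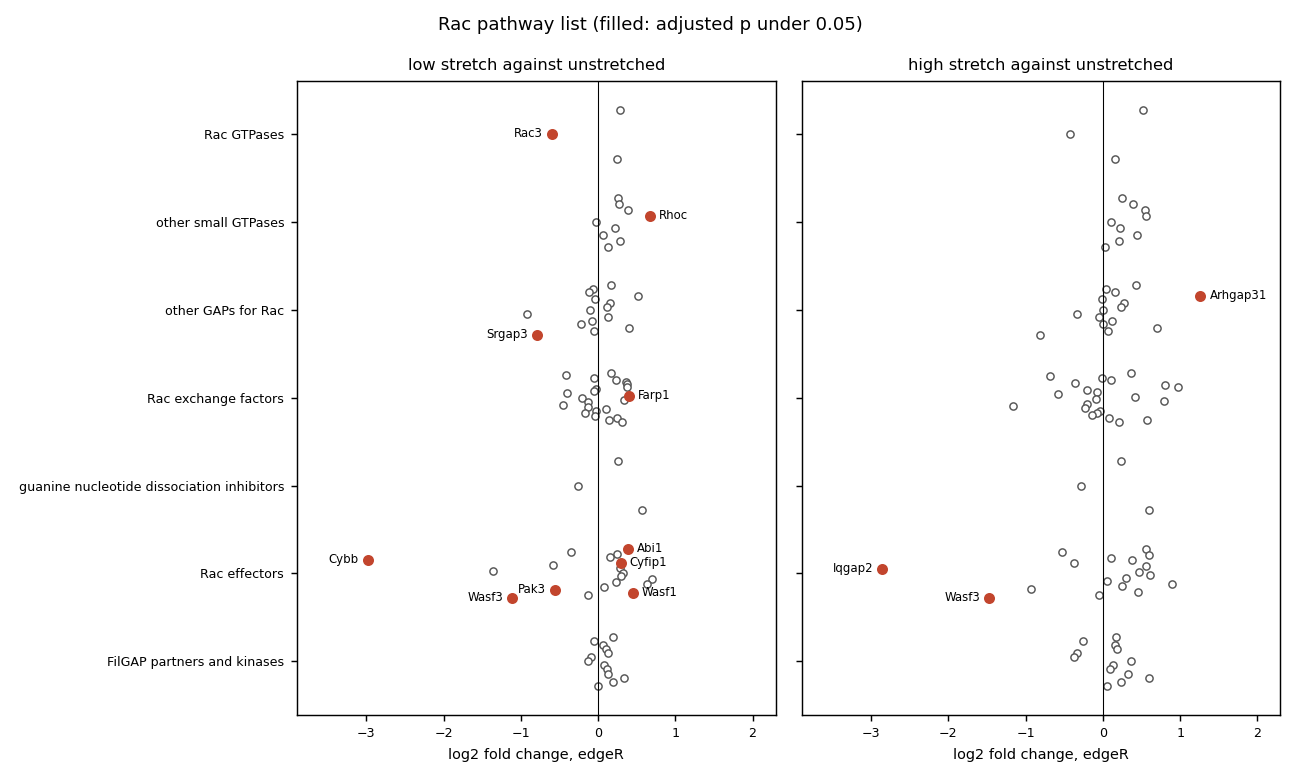
Log2 fold change (x axes) of the tested genes of the Rac pathway list by role (y axis, points spread within each role for legibility), for low stretch and high stretch against the unstretched samples of the same experiment. Filled points passed an edgeR adjusted p of 0.05, and Wasf3 is lower in both comparisons. Genes that are not reported here are not drawn.

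The members were also set within the wider Arhgap family, of which 30 other genes were in the table. Under low stretch 26 were tested, 1 was higher and 3 were lower, which is 15.4% where 5.45% of all genes passed. Under high stretch 25 were tested, 1 was higher and 1 lower, which is 8.0% where 3.47% of all genes passed. Those with the lowest p under low stretch were Arhgap20 (log2 fold change -1.94, SE 0.34, edgeR adjusted p 0.0110), Arhgap18 (-0.88, SE 0.17, edgeR adjusted p 0.0162) and Arhgap42 (0.39, SE 0.09, edgeR adjusted p 0.0336). Arhgap20 also passed under high stretch, from 1.71 to 0.121 CPM (log2 fold change -3.80, SE 0.82, edgeR adjusted p 0.0490), and Arhgap31 was the other gene that passed there.

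The genes whose pattern was most like that of a member were found by Pearson's r of log2 CPM, centred on the mean of each experiment, over the 15 samples and among 12935 genes. These r values describe samples that share libraries and the same stretch contrast. For Arhgap22 they were Cbr2 (r = 0.973), Agpat3 (0.973), Tspan9 (0.968), Ppm1f (0.958) and Clec2l (0.956). For Arhgap24 they were Vit (r = 0.944), Ms4a2 (0.937), Plekhh2 (0.932), Ms4a6d (0.929) and Cnmd (0.928). The r between Arhgap22 and Arhgap24 was 0.581, so neither was among the nearest genes of the other.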

How the data were processed

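Stranded poly(A) libraries from 15 samples were sequenced as paired reads of 100 bases, per the labels' protocols. The authors deposited raw counts per gene and TPM per transcript. STAR 2.7.5c, featureCounts from Subread 2.0.0, Salmon 1.9.0, DESeq2 1.38.3 and the mouse build mm39 are named in the submitters' processing notes, without roles. The annotation and the strand setting of the counting are not given in the sources used here, so reads of a gene and of an antisense neighbour cannot be told apart. Symbols and models came from GENCODE M21 on GRCm38, which matched 52083 of 55416 genes and 137189 of 140789 transcripts (99.12% to 99.34% of TPM). All printed coordinates are GRCm38, not mm39. Salmon splits reads of shared exons between transcripts by a model, so TPM of overlapping models are estimates that carry no depth. A TPM listed at 0 can be a failed estimate.

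Groups came from the sample titles. No label says that samples of a group are separate cultures, so p-values measure the spread between these samples. Counts were tested with edgeR 4.0.16 (TMM, filterByExpr, quasi-likelihood F test) in R 4.3.3. Usage was tested with limma 3.58.1 on log2((transcript TPM + 0.1) / (other transcripts' TPM + 0.1)), for genes with a mean of at least 1 TPM and mean shares of 5% to 95%. ENSMUST00000131086 passed the share minimum only through stretched samples. Benjamini-Hochberg adjustment at 0.05 ran over all features. Each stretched group was fitted with its own unstretched samples, the unstretched groups in a fit of their own, and the difference between effects over all 15 samples. The test planned for that difference is not given for Arhgap22 and its transcripts, since it uses the stretched samples that chose them. Plate runs are neighbouring positions in the codes of the sample descriptions, read as places on a plate. Their borders are not in the labels and were chosen here, and what the samples of a run shared is not stated. Samples of a run deviated together in experiment 1 (mean r across genes 0.438, against -0.218 between runs). The tests were tried on simulated data. The usage test recovered 85.5% of log2 shifts of 3 in the low-stretch design and 62.5% in the high-stretch design. It recovered 66.0% for the baseline and 53.0% for the difference between effects. Its simulated noise was not taken from these samples, and smaller shifts were not tried. For log2 changes of 2, edgeR recovered 91.0%, 85.5%, 84.0% and 59.0% in the same order.

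The members and gene lists were chosen with earlier results of these data known. Named were the 3 members, their transcripts with a mean share of at least 5% in any group, 7 set partners of the family, per stretch comparison the 4 list genes of lowest p in each direction past the threshold, the 3 of lowest p in the Arhgap family and the 5 genes most like a member (mean of at least 1 CPM, prior count 2). Some genes of the lists enter counts and sums but are not reported here. Alternatives were DESeq2 1.42.0, RLE factors, other filters and pseudocounts, 1 fit of all samples, the replicate number or the plate run as a block, and fits that omitted each sample in turn.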

Additional observations from a re-analysis of the deposited data

Results flagged for a closer look

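In low-stretch replicate 1, ENSMUST00000112852 took 50.33% of Arhgap24 TPM, against 59.1% to 61.0% in the other 5 low-stretch samples, and lay far from the rest of its group (gap of 0.819 of the group's range). The mirror-image share of ENSMUST00000070000 was 48.94% in the same sample, against 37.8% to 40.1% in the others (gap of 0.791 of the range). Chance marks about 1 in 20 groups in this way. Without that sample the low-stretch usage difference was -0.23 for ENSMUST00000112852 and 0.23 for ENSMUST00000070000 on the log2 scale, and neither passed limma's test with or without it.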

How the results depend on the processing

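The share of Arhgap22 TPM taken by ENSMUST00000131086 kept its direction under all alternatives, with a gain of 9.28 to 11.2 percentage points under low stretch and 16.8 to 20.9 under high stretch. This covers means within replicate numbers (replicate block). As the groups did not overlap, leaving out a sample or averaging within numbers or runs could not turn the direction. Under low stretch, samples that share a number did not deviate together (mean r -0.0713, range -0.44 to 0.365, against a mean of 0.0149 for other pairs). Under high stretch the pairs that share a number are those that share a run (mean r 0.175, range -0.163 to 0.449, against a mean of -0.0945 for other pairs). Arhgap24 under low stretch passed with DESeq2 (-0.49), without the filter on low counts (-0.49, adjusted p 0.0467) and with the plate run block (-0.52). With the replicate block it did not (adjusted p 0.117), nor in any of the 9 fits with 1 sample left out. Under high stretch it missed the threshold with a mean count of at least 100 (-0.94, adjusted p 0.0522), it passed with the replicate block (adjusted p 0.00377), and leaving out 1 sample gave -1.08 to -0.81. In the baseline, leaving out 1 sample gave -0.39 to -0.16. The count of called Rac pathway genes under low stretch was 21 with DESeq2, 5 with all 15 samples in 1 fit, 1 with the replicate block and 46 with the plate run block, and 1 to 13 with 1 sample left out. Over all genes, 2837 passed with DESeq2, 490 with the replicate block and 6106 with the plate run block. Under high stretch the list count was 8 with DESeq2, 11 with all 15 samples and 11 with either block, and 0 to 12 with 1 sample left out. There 1403 of all genes passed with DESeq2 and 1546 with either block. The difference between stretch effects for Arhgap22 turned sign without unstretched replicate 1 (0.011) or 2 (0.0038) of experiment 2, and ranged from -0.33 to 0.011 with 1 sample left out. That for ENSMUST00000112852 turned to 0.025 with the replicate block and ranged from -0.20 to 0.031 with 1 sample left out, and that for ENSMUST00000070000 ranged from -0.012 to 0.23. The baseline usage of ENSMUST00000111956 ranged from -0.063, without unstretched replicate 3 of experiment 2, to 0.29. The cause of these changes was not tested. Arhgap25 and the baseline usage of ENSMUST00000131086 could be fitted mainly without the filters and have no range here. The TPM values carry no depth, so no limit of detection is given for a transcript.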
